A study of Homo sapiens with 2 samples.

Results

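Hypoxic spots lying directly beside the low-UMI area of 2 tumor sections were compared with hypoxic spots of the same sections lying well away from it. The sections came from Tumor-897 and Tumor-899, both raised from MDA-MB-231, a long-used human line of triple-negative breast cancer that here carries a hypoxia fate-mapping reporter, and both left untreated and taken 18 days after implantation. They were cut at 10 µm and measured by Visium, which counts unique molecular identifiers (UMIs) per gene in barcoded spots; a spot is a small region that can hold several cells or parts of cells. Both tumors form a single group (n = 2 tumors, 1 section each), all implanted cells carry the reporter, and the strain of the host is not given in the sources used here. Nothing in the labels names separate experiments, so p-values speak for these 2 sections only. They rest mostly on a variance shared across genes, so a small p-value does not show that the 2 sections agree. Images of the reporter were not analysed here, and nothing is said of whether a spot held cells that had met low oxygen before.

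Spots were chosen from their own counts. The low-UMI area held the spots whose UMI count, averaged on a log scale with that of the adjacent spots, lay below 11473 in Tumor-897 and 5235 in Tumor-899. A hypoxia measure, H, was the number of UMIs per 10000 of the spot that came from 8 genes: NDRG1, BNIP3, CA9, SLC2A1, P4HA1, ADM, EGLN3 and ANKRD37. Outside the low-UMI area, the top 25% of H in each tumor was called hypoxic, which gave 492 of 1968 spots in Tumor-897 and 496 of 1984 in Tumor-899. Of these, the spots 1 to 2 array steps from the low-UMI area (191 and 204) are called hypoxic beside, and those at 5 or more steps (192 and 200) hypoxic away. Together they were 787 of the 5377 spots with at least 500 UMIs, 383 of 2536 in Tumor-897 and 404 of 2841 in Tumor-899. H was 23.9411 in the lowest spot inside the top 25% and 23.8969 in the highest outside it in Tumor-897; in Tumor-899 these values were 21.8627 and 21.8245.

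Cells short of oxygen stop hydroxylating the alpha subunits of the hypoxia-inducible factors (HIFs), which then accumulate and turn on genes for glucose uptake, glycolysis, angiogenesis, pH control and fat storage. In solid tumors, oxygen and nutrients fall with distance from perfused vessels, and tissue far from them can die. NF-kB drives genes for cytokines and acute-phase proteins, and interferon-stimulated genes are turned on by STAT and IRF factors. A region of few UMIs can hold fewer cells, less RNA per cell or less RNA captured, and these cannot be told apart here.

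**Figure D1:**
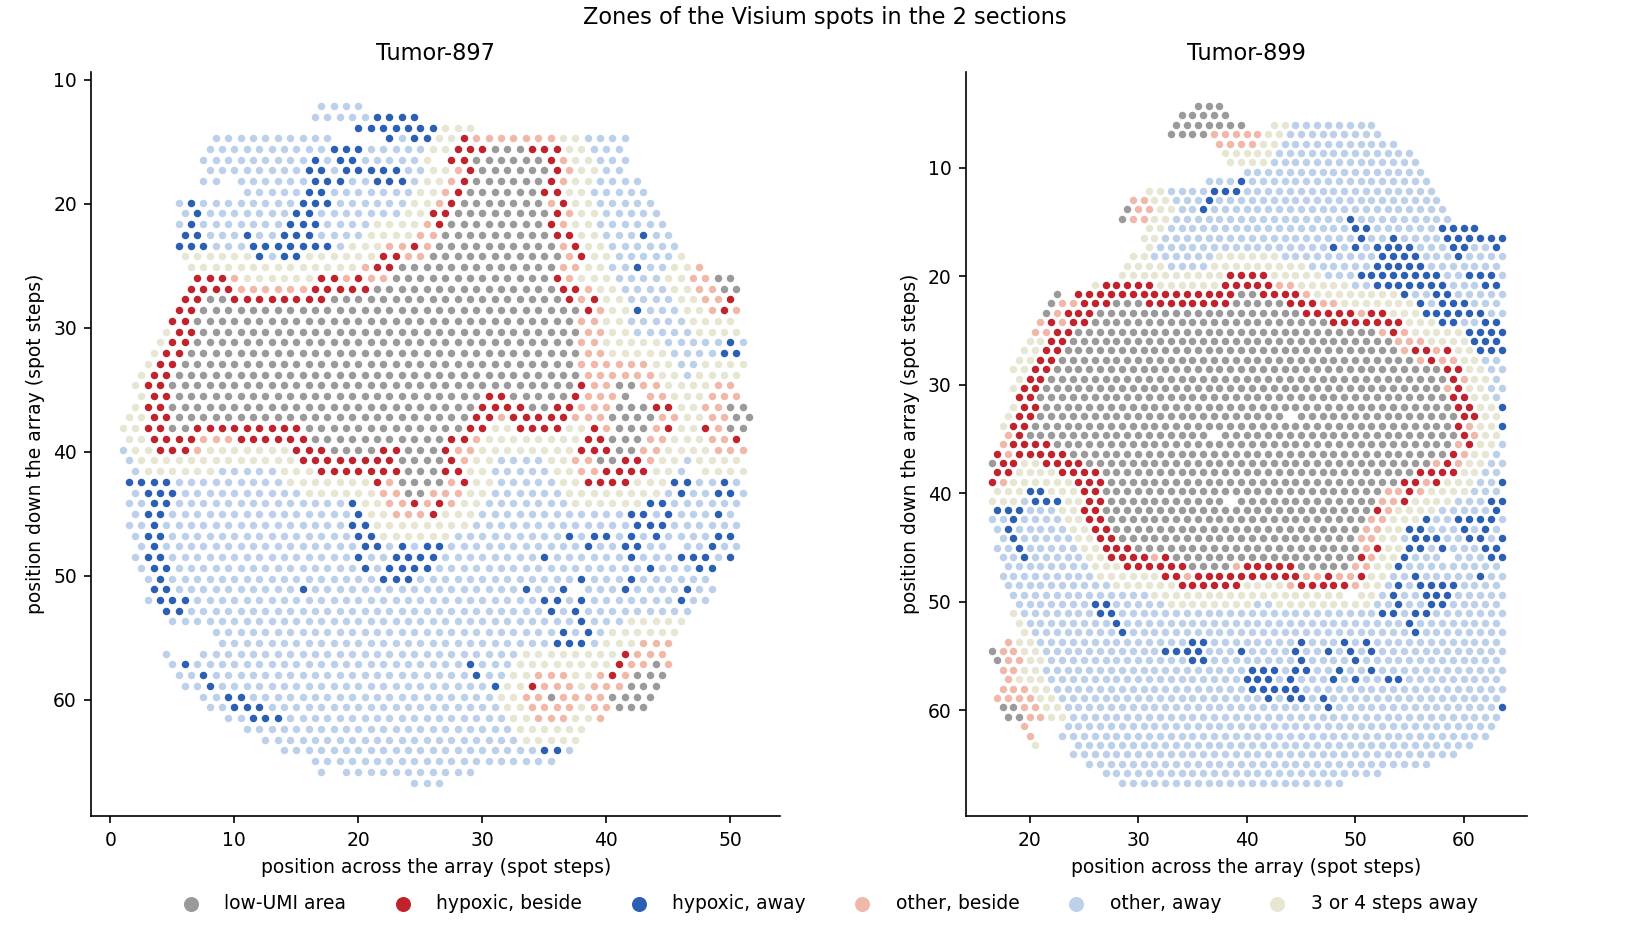
Map of the 2 sections, 1 point per spot with at least 500 UMIs, both axes in spot steps; red spots are hypoxic beside, dark blue hypoxic away, pale red and pale blue the other spots at the same distances, grey the low-UMI area, and cream spots lie 3 or 4 steps from it. In both tumors the red spots form a rim around 1 large grey area, and the dark blue spots are scattered over several patches.

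The low-UMI area took up 568 spots in Tumor-897, of which 523 adjoined each other, and 857 in Tumor-899, of which 826 did. The sections share 1627 spot barcodes, which mark positions on the array and not cells. Hypoxic spots were frequent around the low-UMI area. Within 2 steps of it, 52.2% of 366 spots in Tumor-897 and 67.8% of 301 in Tumor-899 were in the top 25% of H, against 15.5% of 1240 and 14.4% of 1390 at 5 or more steps. Hypoxic beside spots fell into 19 and 9 patches of adjoining spots, with 92 and 172 spots in the largest, and hypoxic away spots into 33 and 29 patches with 43 and 56 in the largest. Along the rim the top 25% held 106 spots at 1 step and 85 at 2 steps in Tumor-897, and 102 and 102 in Tumor-899.

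The beside spots were shallower and somewhat richer in H genes than the away spots. Their median was 19157 UMIs against 26940 in Tumor-897 and 12954.5 against 19394 in Tumor-899, and the zone sums that entered the tests held 3781774 against 5290110 and 2726032 against 3803032 UMIs. Median H was 35.8 beside and 30.9 away in Tumor-897, and 36.3 and 26.2 in Tumor-899. Since H and UMIs chose the spots, the 8 genes are given as levels with no test, in CPM, the usual depth-scaled UMI count, here of the zone sum and not TMM-scaled. NDRG1, a stress gene induced by HIF, stood at 1673 CPM beside and 1468 away in Tumor-897 and at 1778 and 1154 in Tumor-899. ADM, which encodes the vasodilator peptide adrenomedullin, stood at 321 and 210 CPM in Tumor-897 and at 281 and 115 in Tumor-899. EGLN3, an oxygen-sensing HIF hydroxylase, stood at 91.5 and 64.8 CPM and at 69.7 and 37.1 CPM. CA9, a carbonic anhydrase at the cell surface, was at 172 and 168 CPM in Tumor-897 and at 204 and 115 CPM in Tumor-899, and the glucose transporter gene SLC2A1 at 670 and 644 CPM and at 649 and 592 CPM. All 8 genes were therefore higher beside than away in both tumors, by little for CA9 and SLC2A1 in Tumor-897.

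Other measures of the spots did not all move alike in the tumors. Mitochondrial genes took 2.00% of the UMIs beside and 1.94% away in Tumor-897, and 1.32% and 1.42% in Tumor-899. The median distance to the tissue border was larger beside in both tumors, at 10 steps beside and 4 away in Tumor-897, and 11 and 10 steps in Tumor-899. Over the whole sections the line's mesenchymal marker VIM stood at 5639 and 5548 CPM, while CDH1, the E-cadherin gene, gave 3 and 1 UMIs and ESR1, the estrogen receptor gene, 7 and 5.

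Of 11991 genes tested, 275 were higher beside the low-UMI area and 129 were lower at an edgeR adjusted p of 0.05, which is 2.29% and 1.08% of them and 3.37% in either direction, with the 8 H genes left out and the tumor as a block. The median log2 difference over all genes tested was -0.004, and 1730 genes had an unadjusted p under 0.05. Both tumors gave the same sign for 403 of the 404 called genes and for 58.0% of all genes tested. The exception, named after its values were seen, was HBB, a hemoglobin gene, called at an edgeR adjusted p of 6.85e-08 with tumors of opposite sign. The 404 genes were called from the same 2 tumors, and the fit favors genes that move alike in both. The share of 403 is therefore no separate support. With 4 sums and 1 residual degree of freedom, the calls lean on a variance shared across genes (89.4 prior degrees of freedom). With away spots from 4 steps, 269 of the 404 calls were kept at 20.1 prior degrees of freedom. With spots at 2 steps only, 84 were kept at infinite prior degrees of freedom. Why calls were lost was not tested. There were 3 higher and 0 lower genes without the low-count filter, with 5.73 prior degrees of freedom and 1454 genes at an unadjusted p under 0.05. Without the tumor as a block, 3 genes were higher and 0 lower, with 725 at an unadjusted p under 0.05. DESeq2 called 74 higher and 10 lower; it gave an adjusted p to 159 of the 404 genes and called 84 of these. Scaling by library size alone turned the split to 134 higher and 241 lower and put the median difference over all genes at -0.06.

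**Figure D2:**
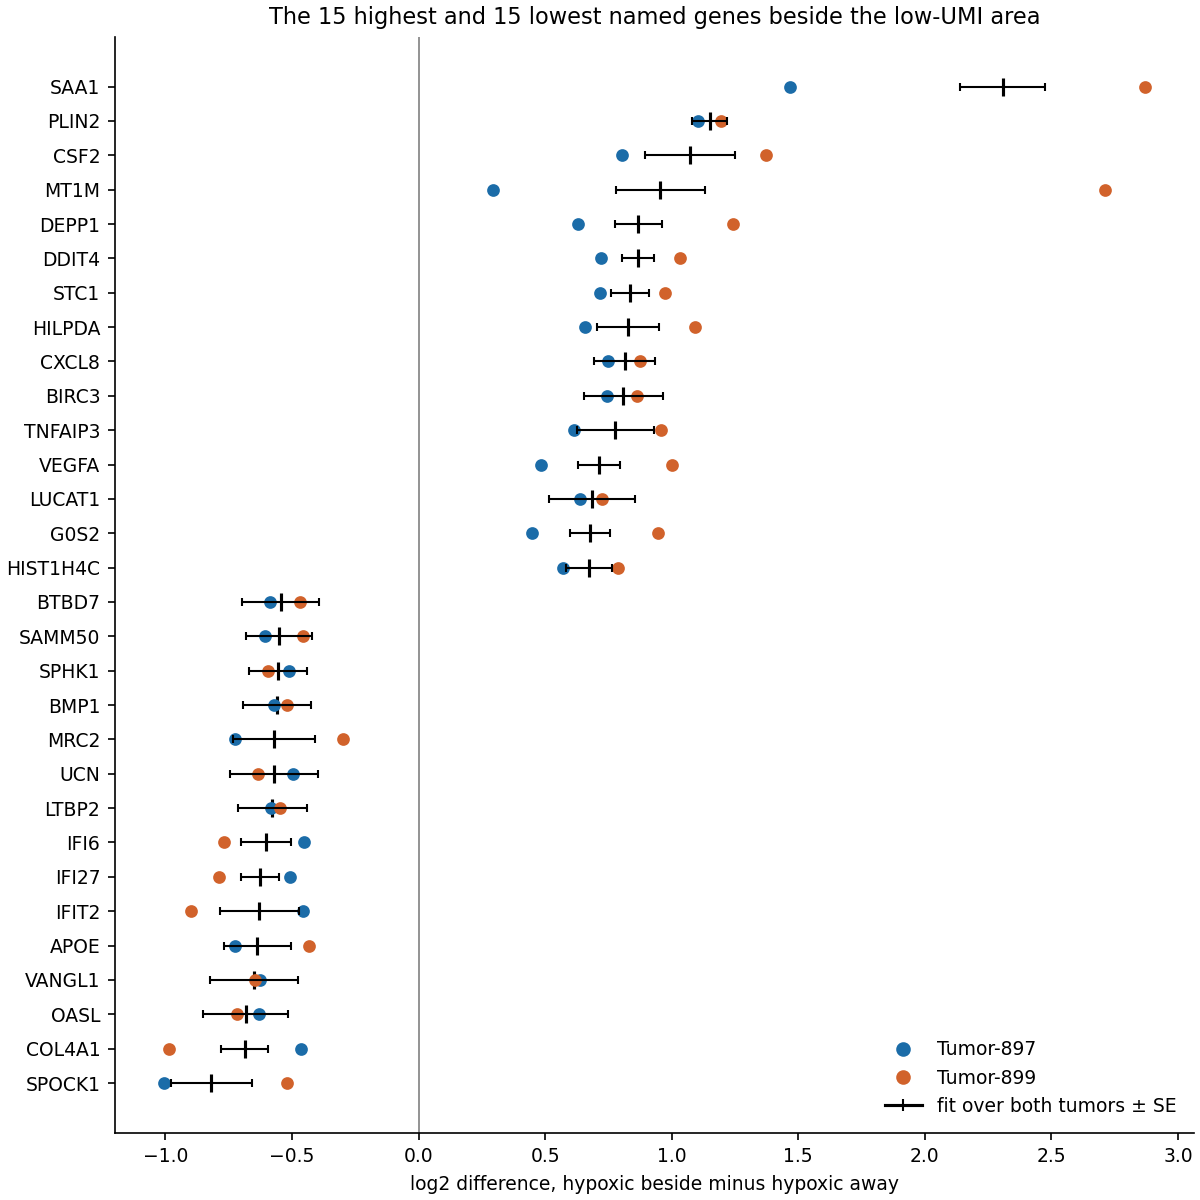
Log2 difference between hypoxic spots beside and away from the low-UMI area for the 15 highest and 15 lowest genes named by rule; blue points are Tumor-897, orange points Tumor-899, and black marks the fit over both tumors with its standard error. The rule took only genes whose tumors share a sign; SAA1 (1.47 and 2.87) and MT1M (0.29 and 2.71) differ widely between them.

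Genes of the hypoxia response beyond the 8 used for selection were higher beside the low-UMI area. Of 38 other HIF target genes, 36 were tested, and 18 rose beside the low-UMI area and 0 fell. List counts of called genes, here and below, stand beside 2.29% higher and 1.08% lower over all genes tested. The median log2 difference of the 36 was 0.37, with 0.20 in Tumor-897 and 0.52 in Tumor-899, beside a median of -0.004 over all genes. DDIT4, an inhibitor of mTOR signaling, stood at 538 CPM beside and 326 away in Tumor-897 and at 472 and 230 CPM in Tumor-899 (here and for the genes that follow, CPM is TMM-scaled). Its level beside was above its level away in both tumors, and the fit gave a 1.82-fold rise (log2 0.87 ± 0.06 SE, edgeR adjusted p = 3.75e-20). STC1, a secreted glycoprotein hormone, rose 1.79-fold, from 146 to 241 CPM and from 126 to 247 CPM (log2 0.84 ± 0.08 SE, edgeR adjusted p = 2.73e-15). VEGFA, the main angiogenic growth factor, was at 181 CPM beside and 129 away in Tumor-897 and at 180 and 89.4 in Tumor-899 (log2 0.71 ± 0.08 SE, edgeR adjusted p = 3.58e-10). DEPP1, a FOXO- and hypoxia-induced gene, had a log2 difference of 0.63 in Tumor-897 and 1.24 in Tumor-899, and HILPDA, which blocks triglyceride breakdown in lipid droplets, 0.66 and 1.09. The other 13 called members ranged from FAM162A (log2 0.25) to RIMKLA (log2 0.85), and included the transcription regulators CITED2 (0.60) and BHLHE40 (0.53), the glucose transporter gene SLC2A3 (0.49), the histone demethylase gene KDM3A (0.43) and the collagen-modifying genes LOX (0.43) and PLOD2 (0.33). Tumor-899 gave the larger difference for all 18 but CITED2, with LOX at 0.77 against 0.15 in Tumor-897; CITED2 was at 0.48 in Tumor-899 against 0.72.

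Glycolysis moved less. Of 19 genes tested, 5 rose and 0 fell, with a median log2 difference of 0.13, of which Tumor-897 showed 0.01 and Tumor-899 0.28. HK2, the inducible hexokinase, was at 222 CPM beside and 174 away in Tumor-897 and at 230 and 162 in Tumor-899 (log2 0.42 ± 0.07 SE, edgeR adjusted p = 1.97e-05). ENO1 (log2 0.24), LDHA (0.21) and GAPDH (0.13), which encode enzymes of the lower pathway, rose by smaller amounts, and ENO2, a second enolase, by 0.36.

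PLIN2, which encodes the coat protein of lipid droplets, rose by nearly the same amount in both tumors. It stood at 315 CPM beside and 146 away in Tumor-897 and at 335 and 146 CPM in Tumor-899, a 2.22-fold difference (log2 1.15 ± 0.07 SE, edgeR adjusted p = 5.9e-25). Of the genes followed through the alternative settings, it was the 1 called in all 21 that tested it, with log2 values between 0.86 and 1.39 and adjusted p-values up to 0.011. In patches of 15 or more adjoining spots of Tumor-897, PLIN2 stood at 209 to 396 CPM in the 3 beside and at 116 and 151 CPM in the 2 away (not TMM-scaled). In Tumor-899 it stood at 333 CPM in the 1 patch beside and at 171 to 252 CPM in the 3 away. Patches of a section are not replicates, and how many of all genes part in this way was not counted. G0S2, an inhibitor of the triglyceride lipase, was at 198 and 145 CPM in Tumor-897 and at 219 and 114 CPM in Tumor-899 (log2 0.68 ± 0.08 SE, edgeR adjusted p = 4.91e-10). These were the only called members among 11 lipid storage genes tested, whose median log2 difference was -0.02.

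The sequence before the start of PLIN2 and of DDIT4 is shown because both genes rose with among the lowest adjusted p-values and both windows hold the core of the hypoxia response element, ACGTG. Each window is the 250 bases upstream of 1 start per gene in the RefSeq table (GRCh38.p14), which need not be the start of its other transcripts, 5′ to 3′ on the gene's strand, with matches of ACGTG or its reverse complement CACGT in capitals; the letters CACGTG count as 2 overlapping matches. PLIN2 lies on the minus strand (chr9:19127493-19127742) with 3 matches, the first at -120, and DDIT4 on the plus strand (chr10:72273674-72273923) with 1 match at -125.
PLIN2: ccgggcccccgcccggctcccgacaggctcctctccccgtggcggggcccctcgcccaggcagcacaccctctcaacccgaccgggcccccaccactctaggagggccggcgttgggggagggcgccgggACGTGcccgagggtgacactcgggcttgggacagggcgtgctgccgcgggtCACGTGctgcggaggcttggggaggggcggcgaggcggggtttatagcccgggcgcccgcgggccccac
DDIT4: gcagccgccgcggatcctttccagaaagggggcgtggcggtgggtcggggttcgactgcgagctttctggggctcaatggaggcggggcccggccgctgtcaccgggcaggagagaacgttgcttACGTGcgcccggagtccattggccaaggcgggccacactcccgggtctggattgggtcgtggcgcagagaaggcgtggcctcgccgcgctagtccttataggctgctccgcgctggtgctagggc
A match occurred in 18.7% of 27305 promoters in the RefSeq table, in 24.0% of the 9380 tested genes with a window, and in 64 of the 213 higher genes with a window. Of the 18 higher HIF target genes, 14 had a window and 9 of those held a match. The list was made of HIF targets, and matches among its members not called were not counted, so this share does not bear on their rise. Of the 103 lower genes with a window, 18 held one (17.5%). A match is a description of letters and not a measured site.

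**Figure D3:**
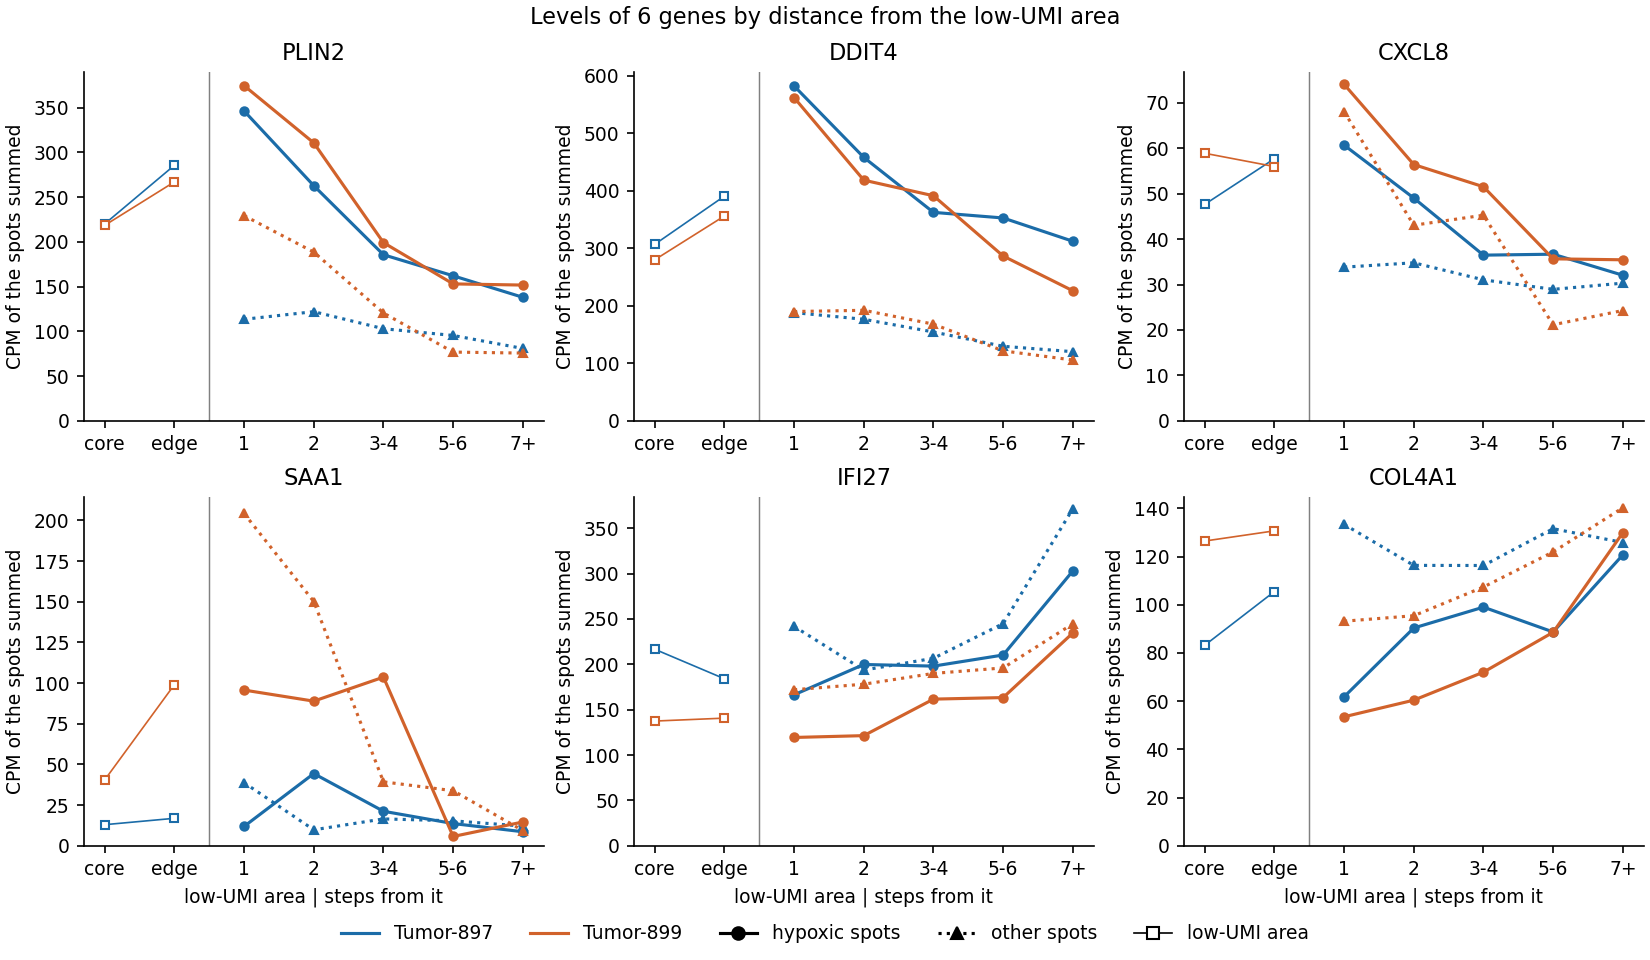
CPM (not TMM-scaled) of 6 genes in spots summed by distance: the core and edge of the low-UMI area (squares), then hypoxic spots (solid lines) and other spots (dotted lines) at 1, 2, 3 to 4, 5 to 6 and 7 or more steps; blue is Tumor-897 and orange Tumor-899. Among hypoxic spots, PLIN2 and DDIT4 are highest at 1 step in both tumors (346 and 375 CPM for PLIN2) and IFI27 at 7 or more steps, while SAA1 has no common course.

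By distance, these genes were highest at 1 step among the hypoxic spots (CPM not TMM-scaled). PLIN2 in hypoxic spots of Tumor-897 stood at 346, 263, 186, 162 and 138 CPM at 1, 2, 3 to 4, 5 to 6 and 7 or more steps, and in Tumor-899 at 375, 311, 199, 153 and 152 CPM. The spots of the low-UMI area were not selected on H, so their levels are not like with like: PLIN2 stood at 286 and 267 CPM at its edge and 220 and 218 CPM in its core, and in the other spots at 1 step, below the top 25% of H, at 113 and 229 CPM. DDIT4 fell from 582 CPM at 1 step to 312 at 7 or more in Tumor-897 and from 562 to 226 CPM in Tumor-899. The summed HIF target list in hypoxic spots stood at 5226 and 5368 CPM at 1 step and at 4277 and 3703 CPM at 7 or more. In the unselected low-UMI area it stood at 4016 and 3908 CPM at the edge and 3405 and 3373 CPM in the core, between the hypoxic spots and the other spots at 1 step (2720 and 2687 CPM). Distances chosen in this way share spots with the tested zones, so the courses are descriptions.

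The H genes were higher beside, so spots were also paired within each tumor on H, which gave 153 and 118 pairs with median H of 33.2 and 33.0 in Tumor-897 and 28.8 and 28.8 in Tumor-899. This left 20 higher and 13 lower genes, and 31 of the 404 calls. The HIF target list then had a median log2 difference of 0.11 with 2 members called, against 0.37 and 18 without pairing. PLIN2 kept a log2 difference of 0.99 (edgeR adjusted p = 1.1e-05), DDIT4 0.48 (adjusted p = 0.00487) and STC1 0.60 (adjusted p = 0.00463), whereas VEGFA had 0.38 (adjusted p = 0.13), HILPDA 0.59 (0.099) and DEPP1 0.44 (0.097). HK2 had 0.08 (adjusted p = 0.82), and no glycolysis gene was called. Pairing on H and UMIs together (112 and 100 pairs) left 23 higher and 40 lower genes, among them 52 of the 404, and a median of 0.08 for the HIF target list; VEGFA then had 0.38 (adjusted p = 0.039). The number of spots also falls by pairing. The prior degrees of freedom were 13.7 with pairing on H, against 89.4 without pairing, and infinite with pairing on H and UMIs. VEGFA had the same log2 difference in both pairings, with SE of 0.09 and 0.10, and was called only in the second. The share of spot number and of variance sharing in the calls lost, here and below, was not tested. Of the 404 genes, 396 of 401 tested kept their direction with pairing on H and 378 of 397 with pairing on H and UMIs. The paired spots are a part of those that gave the 404 calls.

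SAA1, an acute-phase protein gene, had the highest log2 difference of the genes named by rule, and it was uneven (chr11:18266264-18269967, GRCh38.p14). It stood at 29.6 CPM beside and 10.4 away in Tumor-897 and at 91.8 and 12.1 CPM in Tumor-899, a 4.95-fold difference (log2 2.31 ± 0.17 SE, edgeR adjusted p = 4.28e-20), with log2 1.47 in Tumor-897 and 2.87 in Tumor-899. These levels rest on 108 and 55 UMIs in Tumor-897 and 249 and 48 in Tumor-899. The 10 spots richest in it held 64.8% of its UMIs beside and 61.8% away in Tumor-897, and 71.9% and 54.2% in Tumor-899. In the 3 beside patches of 15 or more spots in Tumor-897 it stood at 52.8, 1.78 and 7.07 CPM (not TMM-scaled), and in the 2 away patches at 8.22 and 31.8 CPM, so 2 of the 3 beside lay below both away. In Tumor-899 it stood at 108 CPM in the 1 such patch beside and at 14.5, 10.3 and 41.4 CPM in the 3 away. At 1 step from the low-UMI area of Tumor-897 it was at 11.9 CPM in hypoxic and 38.8 CPM in other spots, and at 95.7 and 204 CPM in Tumor-899. Without spots within 2 steps of the tissue border its log2 difference was 0.79 (edgeR adjusted p = 0.075). SAA1 closely resembles SAA2, so how reads were split between them is uncertain.

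Cytokine and NF-kB target genes were the next group. Of 22 tested, 9 rose and 0 fell, with a median log2 difference of 0.41 (0.33 in Tumor-897 and 0.37 in Tumor-899). CXCL8, the neutrophil chemokine interleukin-8, stood at 56.7 CPM beside and 33.6 away in Tumor-897 and at 63.0 and 34.1 CPM in Tumor-899 (log2 0.81 ± 0.12 SE, edgeR adjusted p = 3.55e-07). CSF2, which encodes GM-CSF, stood at 25.8 and 14.5 CPM and at 30.2 and 11.4 CPM (log2 1.07 ± 0.18 SE, edgeR adjusted p = 7.94e-06). Both tumors were higher beside for each of these genes, and the differences in CXCL8 were alike, at 0.75 and 0.88. The NF-kB inhibitors TNFAIP3 (log2 0.78) and NFKBIA (0.48) rose, as did the survival gene BIRC3 (0.81), the neutrophil chemokine CXCL2 (1.03), the cyclooxygenase gene PTGS2 (0.64), the interleukin-7 receptor gene IL7R (0.62) and the adhesion gene ICAM1 (0.32). With spots paired on H, 2 members were called and the median was 0.28. CXCL8 then had a log2 difference of 0.80 (edgeR adjusted p = 0.013) and CSF2 1.12 (adjusted p = 0.020), and TNFAIP3 had 0.51 (adjusted p = 0.32).

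TNFAIP3 is shown as the higher gene with 2 matches of the NF-kB motif (GGG, any 2 bases, TTTCC; searched on both strands, matches in capitals) in its 250 bases upstream (GRCh38.p14, chr6:137867009-137867258, plus strand). The window lies before 1 transcript start and inside the gene as annotated (chr6:137866349-137883312), which begins further upstream.
TNFAIP3: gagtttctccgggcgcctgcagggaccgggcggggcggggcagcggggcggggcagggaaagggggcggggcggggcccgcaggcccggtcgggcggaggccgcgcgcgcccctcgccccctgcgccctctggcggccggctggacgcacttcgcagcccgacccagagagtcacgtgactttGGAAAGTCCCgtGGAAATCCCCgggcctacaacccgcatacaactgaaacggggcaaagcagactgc
The motif occurred in 1.73% of all promoters, in 6 of 213 higher genes with a window, and in 4 of the 9 higher NF-kB and cytokine genes. Matches among the members of this list not called were not counted, so the last share does not bear on their rise. The same TNFAIP3 window also holds the ACGTG core, here left in lower case.

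Interferon-stimulated genes were lower beside the low-UMI area. Of 23 tested, 0 rose and 9 fell, with a median log2 difference of -0.42 (-0.35 in Tumor-897 and -0.42 in Tumor-899), and 17 of the 23 were negative in both tumors, beside 3504 of the 11991 genes tested. IFI27, a small mitochondrial and nuclear-envelope protein gene induced by interferon alpha, stood at 190 CPM beside and 271 away in Tumor-897 and at 121 and 210 CPM in Tumor-899, 1.54-fold lower (log2 -0.63 ± 0.08 SE, edgeR adjusted p = 5.09e-10). Beside lay below away in both tumors. ISG15, a ubiquitin-like modifier, stood at 220 and 290 CPM and at 175 and 261 CPM (log2 -0.48 ± 0.07 SE, edgeR adjusted p = 3.55e-07). IFI6 had a log2 difference of -0.60, the RNA-binding IFIT1, IFIT2 and IFIT3 genes -0.44, -0.63 and -0.49, and the oligoadenylate synthetase family genes OAS1, OAS3 and OASL -0.66, -1.01 and -0.68. With spots paired on H the list had a median of -0.28 with 2 called, and IFI27 -0.45 (edgeR adjusted p = 0.018). Without spots within 2 steps of the tissue border, 4 members were called and the median was -0.30. By distance, and without TMM scaling, IFI27 in hypoxic spots went from 166 CPM at 1 step to 303 at 7 or more in Tumor-897 and from 119 to 235 CPM in Tumor-899. Of 10 MHC class I pathway genes, which interferon also induces, none was called; 6 were negative in both tumors, and the median was -0.10.

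The windows of IFI27 and ISG15 are shown because both genes were among the lower ones in both tumors and hold matches of the interferon-stimulated response element (GAAA, any 2 bases, GAAA; both strands, matches in capitals; the 2 in ISG15 overlap). They lie on the plus strand at chr14:94110486-94110735 and chr1:1013247-1013496 (GRCh38.p14), with the first matches at -108 and -113. The IFI27 window too lies before 1 transcript start and inside the annotated gene (chr14:94105894-94116690).
IFI27: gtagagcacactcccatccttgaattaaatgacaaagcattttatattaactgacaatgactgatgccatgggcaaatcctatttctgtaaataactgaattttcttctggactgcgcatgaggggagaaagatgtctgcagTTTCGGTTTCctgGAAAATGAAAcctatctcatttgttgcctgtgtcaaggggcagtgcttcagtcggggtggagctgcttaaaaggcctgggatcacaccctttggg
ISG15: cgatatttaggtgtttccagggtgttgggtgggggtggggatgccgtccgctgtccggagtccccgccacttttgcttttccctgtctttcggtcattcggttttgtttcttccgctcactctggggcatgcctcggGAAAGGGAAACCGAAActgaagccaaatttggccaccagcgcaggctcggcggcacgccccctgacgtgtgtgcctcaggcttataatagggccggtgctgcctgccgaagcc
The motif occurred in 3.07% of all promoters and 2.36% of tested genes with a window, in 8 of the 103 lower genes with a window (7.77%), and in 6 of the 7 lower interferon genes with a window. It also occurred in 9 of the 213 higher genes with a window (4.22%). The list was made of interferon-response genes, and matches among its members not called were not counted. The share among its lower members therefore does not bear on their being lower.

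Genes in the lists of the matrix and of invasion were mostly lower or not called. The collagen-modifying genes LOX and PLOD2, counted among the HIF targets above, rose. Of 18 genes of collagen and matrix assembly, 1 rose and 4 fell, with a median log2 difference of -0.26 (-0.28 in Tumor-897 and -0.13 in Tumor-899). The list summed to 1790 CPM beside and 2311 away in Tumor-897, and to 1782 and 1817 CPM in Tumor-899 (not TMM-scaled). COL4A1, a basement membrane collagen gene, stood at 79.2 CPM beside and 110 away in Tumor-897 and at 58.2 and 116 CPM in Tumor-899 (log2 -0.69 ± 0.09 SE, edgeR adjusted p = 3.94e-08). Its partner COL4A2 had a log2 difference of -0.38, COL6A1 -0.44 and the collagen chaperone gene SERPINH1 -0.35, while LOXL4, a lysyl oxidase, rose (log2 0.83). SPOCK1, a matrix proteoglycan gene, was the lowest of the called genes with a mean of at least 20 CPM and the same sign in both tumors, at 18.6 and 38.0 CPM in Tumor-897 and 19.9 and 28.8 CPM in Tumor-899 (log2 -0.82 ± 0.16 SE, edgeR adjusted p = 2.33e-04). LTBP2 (-0.58), which binds microfibrils, BMP1 (-0.56), a procollagen protease, and MRC2 (-0.57), an endocytic collagen receptor, were also lower. With spots paired on H, SPOCK1 had -1.04 (edgeR adjusted p = 0.017) and COL4A1 -0.58 (0.099). LTBP2, BMP1 and MRC2 then had -0.65, -0.59 and -0.71 (edgeR adjusted p = 0.10, 0.15 and 0.16). Without spots within 2 steps of the tissue border, BMP1 and MRC2 were not called (edgeR adjusted p = 0.10 and 0.11), and SPOCK1, COL4A1 and LTBP2 were. The remaining named lower genes were VANGL1 (-0.65), a planar cell polarity gene, UCN (-0.57), the urocortin gene, SPHK1 (-0.56), a sphingosine kinase gene, SAMM50 (-0.55), of the mitochondrial outer membrane, and BTBD7 (-0.54). Of 27 mesenchymal and invasion genes, 2 rose, the collagenase MMP1 (log2 0.59) and the YAP target ANKRD1 (0.26), and 4 fell, TGFBI (-0.34), MMP14 (-0.40), MMP2 (-0.92) and the urokinase gene PLAU (-0.22). The median of the 27 was -0.15 in Tumor-897 and -0.03 in Tumor-899. Their summed level was 11866 CPM beside and 12830 away in Tumor-897, but 12300 and 11968 CPM in Tumor-899 (not TMM-scaled). Fibroblast markers moved in opposite directions in the tumors, with a summed level of 866 CPM beside and 1150 away in Tumor-897 and 866 and 591 CPM in Tumor-899; 1 of 9 tested, FBLN1, fell. Their part in the matrix result was not tested beyond leaving out the spots richest in other-cell markers, after which 1 of the 18 matrix genes rose and 6 fell.

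Among epithelial genes, 0 of 12 tested rose and 3 fell: KRT7 (log2 -0.30), CLDN4 (-0.40) and KRT17 (-1.46), the last at 4.11 and 5.85 CPM in Tumor-897 and 1.84 and 12.6 CPM in Tumor-899. Of 9 S100 calcium-binding protein genes, S100A4 and S100A6 fell. S100A4 stood at 618 CPM beside and 840 away in Tumor-897 and at 424 and 550 CPM in Tumor-899 (log2 -0.41 ± 0.06 SE, edgeR adjusted p = 2.11e-08), and had -0.44 with spots paired on H (adjusted p = 0.00487).

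Ribosomal protein genes rose together by a small amount. Of 30 tested, 18 rose and 0 fell, beside 2.29% and 1.08% of all genes tested. In both tumors 29 were positive, beside 3451 of the 11991 genes tested, and the median log2 difference was 0.15 (0.16 and 0.14). RPL28 was the furthest, at 4628 CPM beside and 3766 away in Tumor-897 and 3434 and 2651 CPM in Tumor-899 (log2 0.33 ± 0.04 SE, edgeR adjusted p = 3.58e-10). This group depended on the scaling and the spots: 8 members were called with library size alone, and 0 with spots paired on H, where the median was 0.08. MALAT1, a long noncoding RNA retained in the nucleus, rose from 2035 to 2712 CPM and from 1354 to 1865 CPM (log2 0.44 ± 0.04 SE, edgeR adjusted p = 2.85e-13). It had 0.35 with pairing on H (adjusted p = 0.00463) and 0.16 with pairing on H and UMIs (adjusted p = 0.48). GAS5, a host gene of small nucleolar RNAs, rose by 0.24, and the lncRNA LUCAT1 by 0.69.

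Stress and metal genes gave a mixed picture. Of 24 immediate early genes, 6 rose, among them the phosphatase genes DUSP5 (log2 0.60), DUSP1 (0.49) and DUSP6 (0.36), which switch off MAP kinases, and 2 fell, IER2 (-0.48) and IER5 (-0.32). Of 17 genes of the NRF2 pathway and iron handling, 4 rose, with the transferrin receptor gene TFRC at 0.53 and the ferritin genes FTH1 and FTL at 0.30 and 0.21; TXNIP, an inhibitor of thioredoxin and of glucose uptake, fell by 0.48. Of 6 metallothionein genes 3 rose. MT1M stood at 49.9 and 40.6 CPM in Tumor-897 and at 44.2 and 6.32 CPM in Tumor-899, so its log2 difference of 0.95 came from Tumor-899 (2.71 against 0.29), and with pairing on H it was 0.17 (edgeR adjusted p = 0.89). PPP1R15A (log2 0.60) and CEBPB (0.41) were the called members of 17 ATF4 targets. HIST1H4C, a histone H4 gene with near-identical copies elsewhere in the genome, rose by 0.67.

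Several processes showed few calls or none. Of 25 S phase genes, CDC25A, a phosphatase that promotes entry into S phase, fell from 11.9 to 5.21 CPM and from 14.1 to 5.16 CPM (log2 -1.305 ± 0.27 SE, edgeR adjusted p = 7.93e-04), and the median was -0.12. In both tumors 14 of the 25 were negative and 2 positive, beside 3504 and 3451 of the 11991 genes tested. The list summed to 1334 CPM beside and 1454 away in Tumor-897, and to 1334 and 1537 CPM in Tumor-899 (not TMM-scaled). None of 26 G2 and M phase genes, 18 genes of the unfolded protein response, 19 of cholesterol synthesis or 26 nuclear respiratory chain genes was called at an adjusted p of 0.05, with medians of 0.05, -0.02, -0.03 and -0.02. Of 13 mitochondrial genome transcripts, MT-ATP8, MT-ND4L and MT-ND3 rose, by 0.38, 0.32 and 0.16. Single members were called higher among 16 autophagy and lysosome genes (SQSTM1, log2 0.25) and 19 apoptosis genes (CASP4, 0.27), and 3 of 12 angiogenic factors rose (VEGFA, ANGPTL4 and EDN1, the endothelin-1 gene) while THBS1, an inhibitor of angiogenesis, fell (-0.44).

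**Figure D4:**
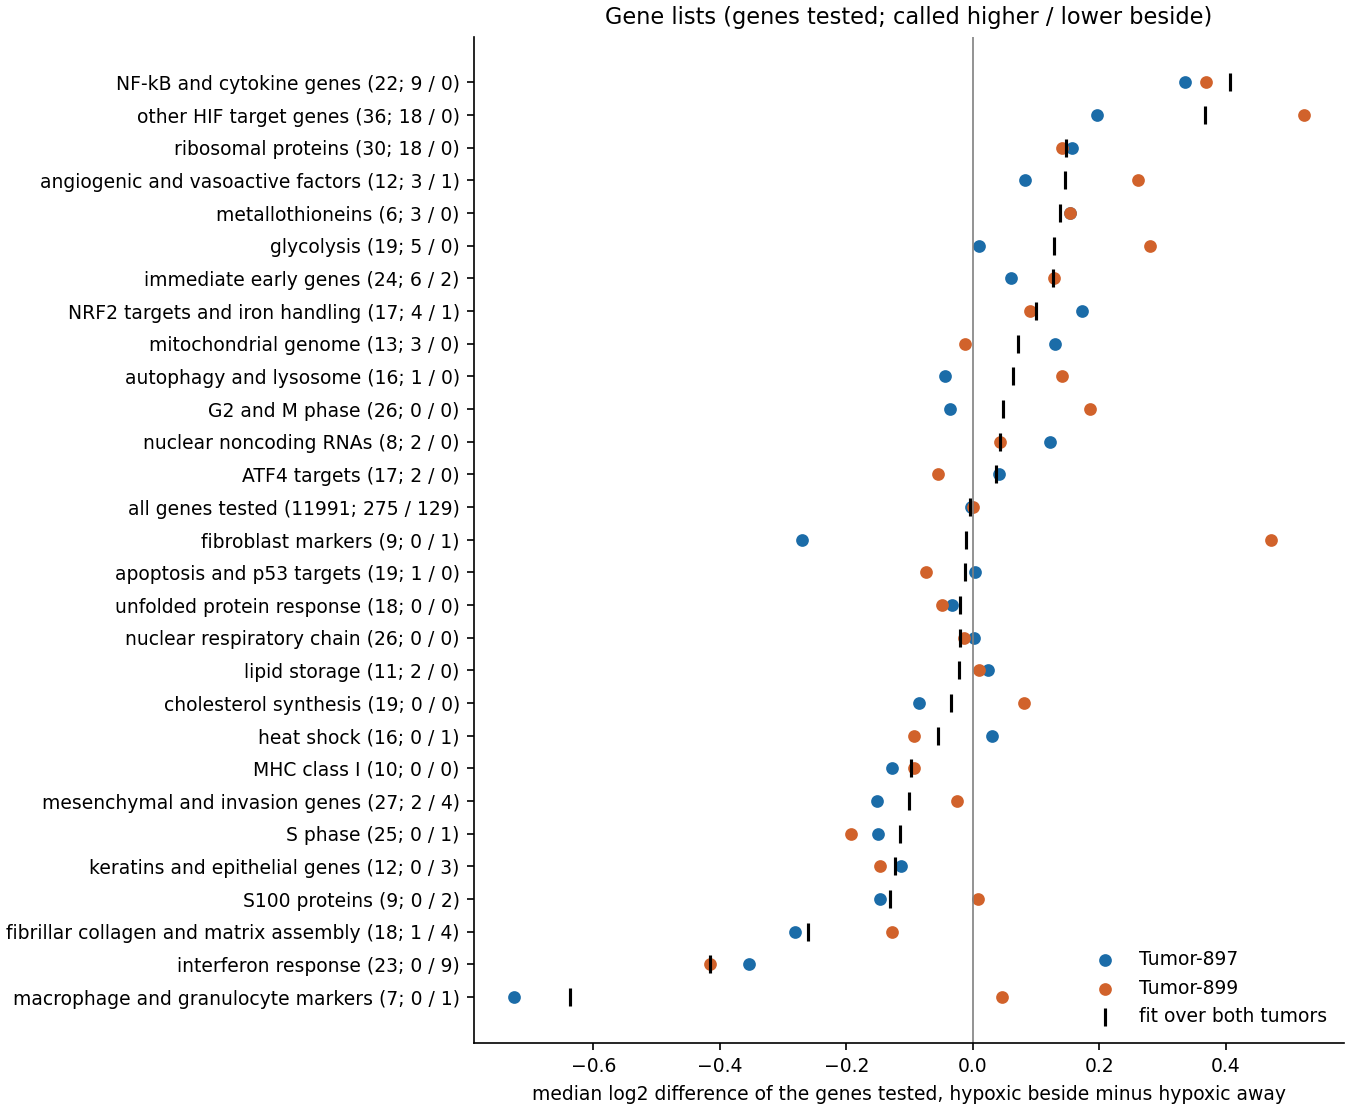
Median log2 difference, hypoxic beside minus hypoxic away, over the tested genes of each list with 6 or more of them; blue is Tumor-897, orange Tumor-899, black the fit over both tumors, and the numbers after each name are genes tested and called higher and lower. NF-kB and HIF target lists lie furthest above 0 and interferon and macrophage lists furthest below, where the macrophage median is -0.73 in Tumor-897 and 0.05 in Tumor-899.

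Markers of other cells were low in both zones (list sums in CPM not TMM-scaled). All 7 marker lists together took 0.197% of UMIs beside and 0.225% away in Tumor-897, and 0.190% and 0.166% in Tumor-899, so they moved in opposite directions in the tumors. Macrophage and granulocyte markers summed to 273 and 327 CPM in Tumor-897 and to 259 and 241 CPM in Tumor-899, and of 17 members between 4 and 7 were at 0 in a zone sum. Most of these UMIs were of CD68 (828 beside and 1217 away in Tumor-897, 607 and 748 in Tumor-899). C1QB had 16 and 58 UMIs in Tumor-897 and 6 and 9 in Tumor-899. TYROBP had 6 and 32 and then 9 and 10, and FCER1G 10 and 29 and then 3 and 3. S100A9 went the other way, with 6 and 0 and then 2 and 0. The granulocyte receptor gene CSF3R had no UMI in any of the 4 sums, CD163 had 1 UMI in 1 of them, and the leukocyte gene PTPRC had 0 or 1. The endothelial genes EMCN and CLDN5 had none. Endothelial markers summed to 98.6 and 105 CPM and to 101 and 96.8 CPM, mostly from ESAM (333 and 494 UMIs, and 251 and 335). Skin epithelium markers summed to 582 and 589 CPM and to 618 and 665 CPM, with KRT1, LGALS7 and TP63 at 0 in the 4 sums. APOE, which macrophages and some tumor cells express, was the 1 of 7 tested members called, at 36.5 CPM beside and 60.6 away in Tumor-897 and at 22.9 and 31.1 CPM in Tumor-899 (log2 -0.64 ± 0.13 SE, edgeR adjusted p = 7.21e-04). Red blood cell markers summed to 126 CPM beside and 51.2 away in Tumor-897 but 22.7 and 31.0 in Tumor-899; HBB was called (log2 1.03), with 1.43 in Tumor-897 and -0.35 in Tumor-899. Skeletal muscle markers summed to 11.4 and 16.4 CPM in Tumor-897 and to 23.5 and 30.2 CPM in Tumor-899, and adipocyte markers to between 8.07 and 14.2 CPM with LEP and RETN at 0. Leaving out the 10% of spots richest in other-cell markers gave 267 higher and 131 lower genes. Cells of the host are read only where their RNA aligned to human genes.

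Whether these differences were particular to hypoxic spots was asked with the other spots at the same distances, which lie below the top 25% of H (175 and 97 spots beside, 1048 and 1190 away). These other spots were not level in H or in depth. Their median H was 16.3 beside and 9.03 away in Tumor-897, and 15.3 and 7.76 in Tumor-899. Median UMIs were 19341 beside and 31004.5 away in Tumor-897, and 8005 and 21321 in Tumor-899. Distance, H and depth therefore cannot be told apart in the other spots. The difference of differences was tested in 12465 genes; 1 was higher and 4 were lower at an edgeR adjusted p of 0.05 (0.00802% and 0.0321%, and 0.0401% in either direction), and 637 had an unadjusted p under 0.05. The calls were not stable: of 16 alternative settings, G0S2 was called in 6, ZFAND2A in 7 and the other 3 in 10 each. G0S2 was the higher gene. In hypoxic spots it stood at 205 CPM beside and 149 away in Tumor-897 and 228 and 117 CPM in Tumor-899, whereas in the other spots it stood at 128 and 128 CPM and at 128 and 121 CPM (difference of log2 differences 0.65 ± 0.13 SE, edgeR adjusted p = 0.048). The leading genes of the main comparison did not pass: the value was 0.23 for PLIN2 (adjusted p = 0.97), 0.17 for DDIT4 (0.97), 0.12 for VEGFA (0.997), 0.09 for SAA1 (0.9999) and -0.07 for IFI27 (0.997), so no difference between hypoxic and other spots was shown for them.

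The 4 lower genes were all heat shock genes. HSPA6, a strictly inducible HSP70, stood in hypoxic spots at 66.4 CPM beside and 78.7 away in Tumor-897 and at 137 and 164 CPM in Tumor-899. In the other spots it stood at 37.4 CPM beside and 20.8 away and at 56.8 and 21.3 CPM. It was thus higher beside in the other spots of both tumors and a little lower beside in the hypoxic ones, a difference of -1.38 ± 0.25 SE (edgeR adjusted p = 0.027). The other spots beside also had the higher median H in both tumors, and spots were not paired on H for this comparison. The part of H in these differences was not tested. HSPA1A, the major inducible HSP70 gene, gave -1.13 ± 0.18 SE (adjusted p = 0.0095), with the limit that HSPA1B is a near-identical copy. The stress-induced zinc finger gene ZFAND2A gave -0.90 ± 0.18 SE (adjusted p = 0.048) and the HSP40 co-chaperone gene DNAJB1 -0.70 ± 0.12 SE (adjusted p = 0.0095). The hypoxic spots were above the other spots of the same tumor at both distances for all 4 genes. In the comparison of hypoxic spots alone, HSPA1A fell by 0.25 (edgeR adjusted p = 0.028) and was the 1 called member of 16 heat shock genes.

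The other spots beside the low-UMI area of Tumor-899 were rich in other cells, with fibroblast markers at 2692 CPM against 1149 CPM away and skeletal muscle markers at 724 against 279 CPM. In Tumor-897 these markers stood at 1167 and 984 CPM and at 16.9 and 13.4 CPM. Without the 10% of spots richest in such markers, 1 gene was higher and 7 were lower, and all 5 genes named here were among them, with adjusted p-values from 1.1e-04 to 0.0023. HSPA6 is shown because its window of 250 upstream bases (GRCh38.p14, chr1:161524290-161524539, plus strand) holds the heat shock element (GAA, any 2 bases, TTC, any 2 bases, GAA; both strands, in capitals), which occurred in 0.44% of all promoters and in 1 of the 4 lower genes.
HSPA6: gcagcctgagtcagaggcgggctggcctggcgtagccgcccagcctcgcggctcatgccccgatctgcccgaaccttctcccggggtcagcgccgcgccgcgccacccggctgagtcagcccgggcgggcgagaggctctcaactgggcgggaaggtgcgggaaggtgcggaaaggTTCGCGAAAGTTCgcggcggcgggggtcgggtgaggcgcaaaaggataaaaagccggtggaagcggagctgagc

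**Figure D5:**
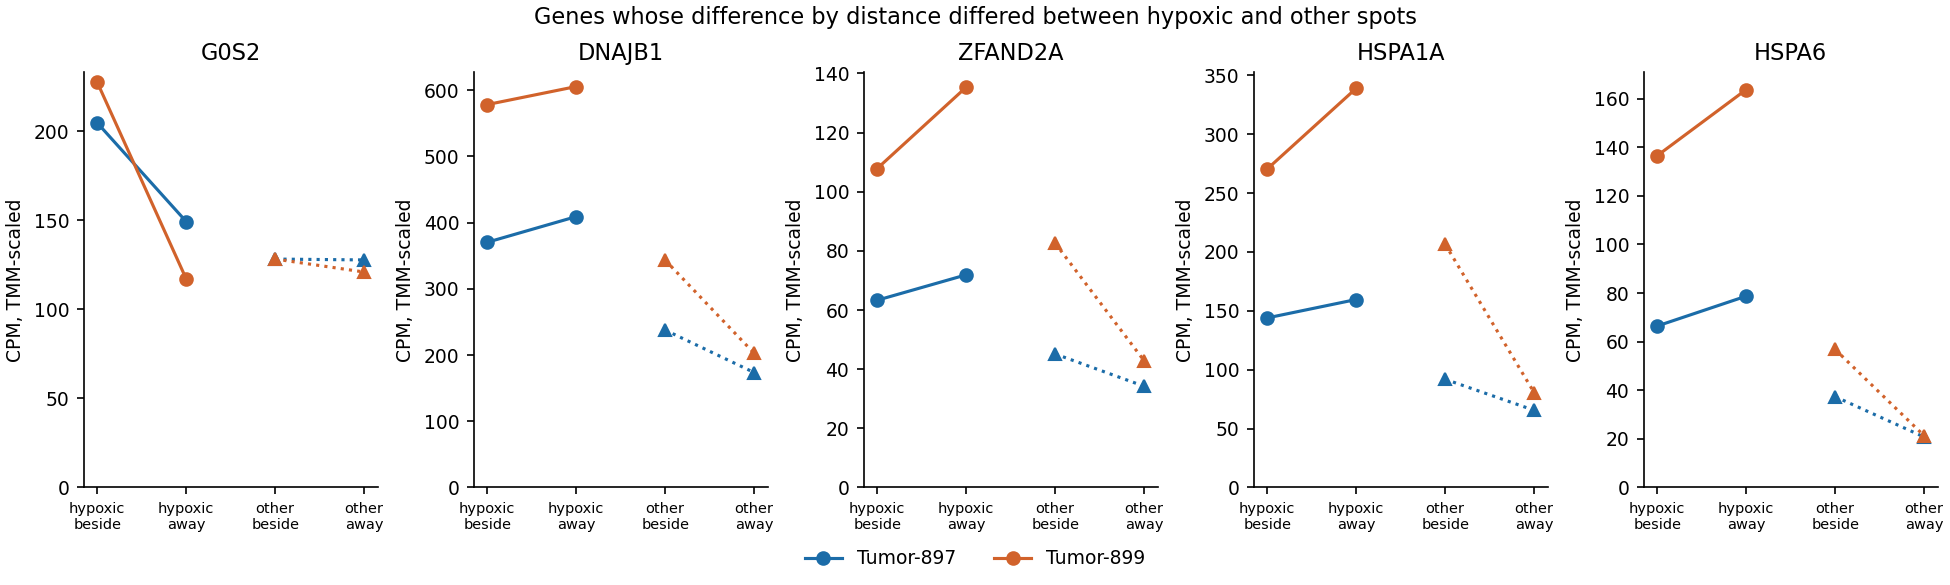
TMM-scaled CPM of the 5 genes whose difference by distance differed between hypoxic and other spots, in the 4 zones; blue is Tumor-897, orange Tumor-899, circles with solid lines hypoxic spots and triangles with dotted lines other spots. G0S2 differs by distance in the hypoxic spots, and the other 4 genes are higher beside than away in the other spots of both tumors.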

How the data were processed

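Gene expression was measured by Visium in 1 section of each tumor. For each spot the authors deposited whole UMI counts of genes from Space Ranger 1.3.0, per the file headers, aligned to hg38, per the submitters' processing notes, with 36601 features. Spots under 500 UMIs were left out; 58661164 UMIs remained in Tumor-897 and 39735490 in Tumor-899. The low-UMI area was set with Otsu's threshold on smoothed log10 UMIs. Spots are not replicates, so UMIs were summed per tumor and zone and tested with edgeR 4.0.16 (quasi-likelihood F test, TMM scaling, filterByExpr, tumor as block) in R 4.3.3, with Benjamini-Hochberg adjustment over all genes tested. The test was also run on simulated counts with 200 changed genes. Every gene had the same dispersion there, so the run cannot check the variance shared across genes. It recovered 50% of changes of log2 0.5 and 92% of log2 1, with 4 false calls. For the difference between hypoxic and other spots it recovered 22% and 63%, with 5 false calls.

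Named genes were the 15 highest and 15 lowest called genes with a mean of at least 20 CPM and the same sign in both tumors, and the 2 furthest members of each list; other list members were named after their values were seen. Genes named by a clone were skipped. The spots and lists were chosen with earlier results of these data known. Log2 differences within a tumor used a prior count of 2. DESeq2 1.42.0 was an alternative.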

Additional observations from a re-analysis of the deposited data

Results flagged for a closer look

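For 5 genes the difference between spots beside and away from the low-UMI area differed between hypoxic and other spots by a test of that difference (edgeR, 3 residual degrees of freedom). The difference of log2 differences was 0.65 for G0S2, -1.38 for HSPA6, -1.13 for HSPA1A, -0.90 for ZFAND2A and -0.70 for DNAJB1. Among the other spots, those beside had higher median H than those away in both tumors, and the part of H was not tested. All 5 kept their sign in the 16 alternative settings that tested them, which share spots with the reported test. HSPA6, HSPA1A and DNAJB1 were each called in 10 of these settings, ZFAND2A in 7 and G0S2 in 6.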

How the results depend on the processing

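Calls were tied to the settings more than directions were. The 15 highest named genes were higher under every alternative run, and the 15 lowest were lower under every one except spots thinned to 3000 UMIs, where 13 were. Both sets were chosen from the same counts for a call and a shared sign. Kept directions are therefore no separate support. Counts of genes higher and lower beside, against 275 and 129, were 134 and 241 with library size alone, 74 and 10 with DESeq2, 3 and 0 without the low-count filter, 19 and 5 with spots thinned, 101 and 42 with the top 10% of H, 58 and 31 with spots at 2 steps only, 20 and 13 with spots paired on H, 23 and 40 paired on H and UMIs, and 419 and 203 with the low-UMI threshold at 0.8 times its value. The lower count was also 54 with spots at 1 step only and 72 with away spots from 4 steps. Without the replicate block (the tumor) it was 3 and 0, and 0 and 0 for the difference between hypoxic and other spots. Counts with 1 tumor left out could not be tested, since no residual degree of freedom remains. The remaining settings moved both counts by less than 1.5 times.

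For the difference between hypoxic and other spots, against 1 higher and 4 lower, the higher count was 0 with DESeq2, relative log expression, thinned spots, a wider top share of H, spots at 1 step only, spots at 2 steps only, away spots from 4 steps and a raised low-UMI threshold. It was 2 without the low-count filter and with the threshold at 0.8 times its value, and 3 with the top 10% of H. The lower count was 1 with DESeq2, 14 without the filter, 0 with thinned spots, a wider top share of H or away spots from 4 steps, 19 with the top 10%, 14 with the threshold at 0.8 times and 2 with it raised, 8 with low areas of at least 10 spots, and 7 without spots rich in other-cell markers, an alternative chosen after seeing the data.

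With a test, log2 differences that changed sign were 0.052 for MRC2 thinned, 0.15 for FOSB with smoothed H, -0.017 and -0.17 for MT1X paired on H and on H and UMIs, 0.090 and 0.020 for TAP2 with the top 10% and paired on H, -0.017 for ATG14 paired on H and UMIs, 0.11 for TFEB at 1 step, and 0.075 for TYROBP with the raised threshold. They were -0.019, -0.058, -0.10 and -0.013 for ESAM with library size, smoothed H, 1 step and paired on H, -0.998 and -0.14 for HBD at 1 step and without other-cell-rich spots, 0.27 for FABP4 with the threshold at 0.8 times, and -0.061 and -0.051 for PERP paired on H and on H and UMIs. Tumor-899 alone (without replicate 1) gave -0.35 for HBB, which was called, against 1.43 in Tumor-897. Of the genes not called, 8 also had tumors of opposite sign: Tumor-899 alone gave 0.12 for FOSB, -0.12 for MT-ND6, 0.33 for AQP1 and for TYROBP, -0.58 for HBD and 0.088 for FABP4, and Tumor-897 alone -0.031 for ESAM and -0.0099 for PERP. The cause was not tested. Depth limits low genes: the smallest sum held 2726032 UMIs.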
